A study of Mus musculus with 12 samples.

Results

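Added estradiol (E2) was compared with vehicle in the RNA of hernia-associated fibroblasts (HAFs), using the 3 libraries of cells given E2 and the 3 libraries of cells given vehicle, which are 6 of the 12 RNA-Seq libraries of the study. Every gene in the deposited table was compared, 13233 genes in all. The HAFs were primary fibroblasts, labelled as skeletal muscle fibroblasts, grown from the lower abdominal muscle of Aromhum mice. These are male mice that carry the human aromatase gene with its own promoter regions, so that the enzyme that makes E2 from androgens is present in the tissue, and they develop scrotal hernias. All groups used here come from Aromhum mice, the vehicle group included, and no cells without the transgene were compared. Both groups had DMSO first and then either ethanol, as the vehicle, or 10 nM E2, and were collected at 48 h. The cells had been passaged once, starved overnight without serum and phenol red, and kept in 0.1% charcoal-stripped serum during the treatment. The other 6 libraries had fulvestrant at 100 nM, alone or before 10 nM E2, and are used here only to show where the genes that changed with E2 lay when fulvestrant was present. Each group holds replicates 1, 2 and 3, and the sources used here do not say whether these are separate mice or cultures, so the p-values measure the spread between these samples, which may be technical.

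E2 acts mainly through estrogen receptor alpha, encoded by Esr1, a transcription factor that on binding its ligand attaches to estrogen response elements in DNA or to other DNA-bound factors such as AP-1 and Sp1. Many of its binding sites lie far from gene starts, and the set of genes that respond differs strongly between tissues, with the progesterone receptor gene Pgr among the responses shared by breast, uterus and many stromal cells. Fulvestrant is an antagonist that displaces E2 from the receptor and leads to the receptor's degradation. In muscle, fibroblasts make the collagens and other matrix proteins that replace muscle fibers in fibrosis.

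The values were normalized counts per gene, compared as log2(normalized count + 1) with limma, with the replicate number as a block, so that each E2 library was set against the vehicle library of the same number. A gene is called here at a Benjamini-Hochberg adjusted p under 0.05 over all 13233 genes and a fold change over 1.2. Reads on the listed genes ranged from 26280424 to 44040507 per vehicle library and from 20665975 to 35739876 per E2 library, and each listed gene had at least 10 reads in each library. The libraries of replicate 1 stood apart from the other 4: the first principal component of the 6 libraries held 81.6% of the variance and placed the vehicle and E2 libraries of replicate 1 at -56.0 and -49.8 and the remaining libraries between 21.8 and 33.9. All 10 fibroblast markers of a fixed list were measured, at a summed 487349 to 552028 normalized counts with vehicle and 560683 to 622879 with E2. Of the markers of other cells, 1 of 11 myogenic genes (Ttn), 1 of 9 endothelial genes (Tek) and 2 of 9 macrophage and leukocyte genes (Cd68 and Lyz2) were analysed, at summed levels with vehicle of 35.3 to 47.5, 58.4 to 277 and 161 to 389. With E2 the levels were 14.9 to 36.5, 65.1 to 166 and 90.7 to 361, and each of these genes had an estimate below 0. None of these markers was called.

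E2 raised 43 genes (0.325% of the genes tested) and lowered 14 (0.106%). The increases were larger than the decreases: the median log2 change was 0.64 among the genes that rose, from 0.33 to 1.88, with 8 genes over 2-fold, and -0.45 among the genes that fell, from -0.31 to -0.72, with none over 2-fold. All 57 genes moved the same way in all 3 pairs, which the paired test favors and which was so for 5159 of all genes. For 19 of the 43 and 3 of the 14 the ranges of the E2 and vehicle libraries did not overlap, which was so for 687 of all genes (5.19%). Of the genes that rose, 41 were protein-coding and the other 2 were small nucleolar RNA genes, and all 14 genes that fell were protein-coding. The calls rest on the pairing and on the variance model. Without the block 0 genes were called by limma, with 132 at an unadjusted p under 0.05 against 1917 with it, and with the block but without limma's variance trend 0 were called, with 1450 at an unadjusted p under 0.05. Without replicate 1, 23 genes were called higher and 1 lower, of which 20 were among the 57, without replicate 2 there were 165 and 114 with all 57 among them, and without replicate 3 there were 6 and 0 with 4 among them. Each of the 57 kept its direction in all 3 of these fits. The 10 genes Adh1, Agtr2, Aspn, Col5a3, Csrp2, Palld, Pgr, Plod2, Qpct and Stard10 were called under every other pseudocount, filter and scaling tried and in one fit of all 12 samples. Only Adh1, Agtr2, Aspn and Qpct of these were also called without replicate 3, and Col5a3 and Palld were not called without replicate 1. Rescaling to a common total kept 40 of the 57 calls and quantile normalization kept 42, and Adamts2, Cd248, Cd34, Dhrs9, Il4ra, Khdrbs3, Lrig1, Masp1, Matn2, Matn4, Mt2, Npr3 and Rhoj were called under neither.

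**Figure D1:**
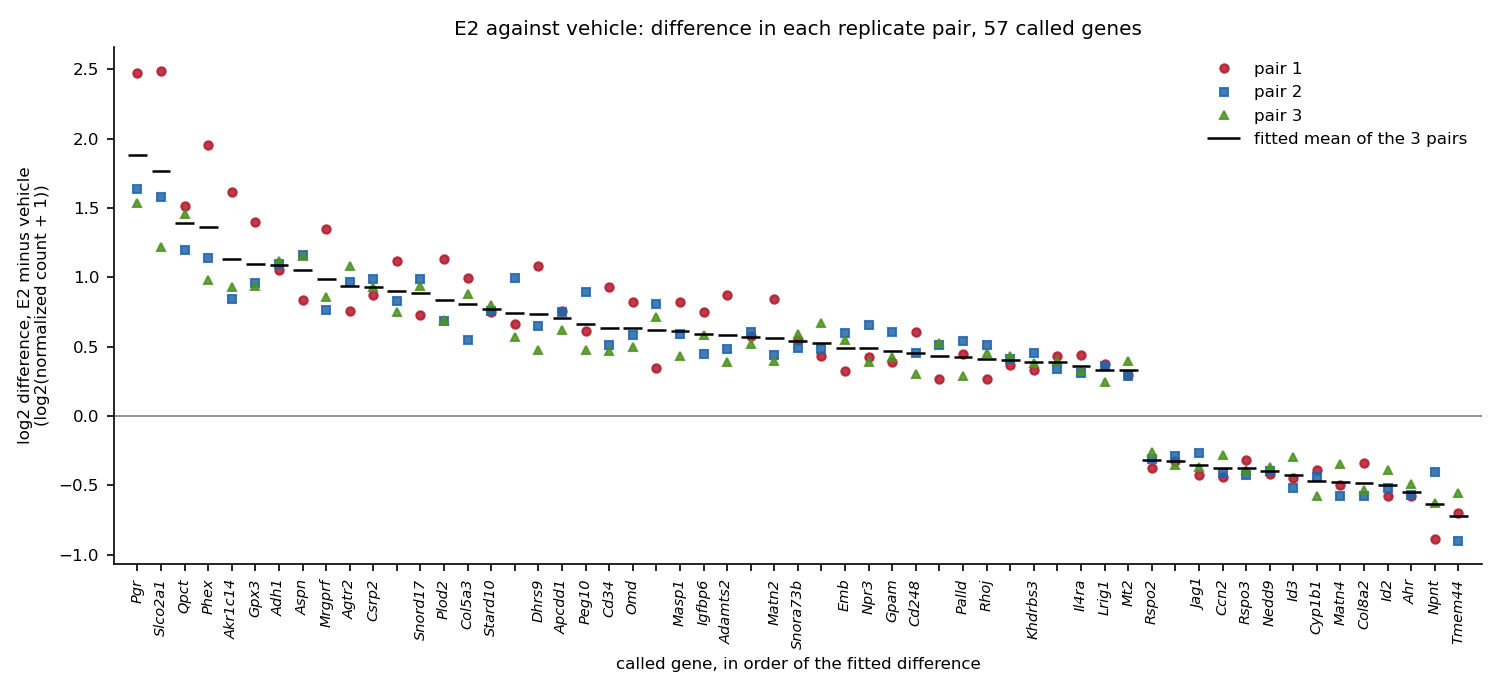
Log2 difference between the E2 and the vehicle library of each replicate pair (y axis, on the log2(normalized count + 1) scale) for each of the 57 called genes (x axis, in order of the fitted difference). Circles, squares and triangles are pairs 1, 2 and 3, the black bars are the fitted means, and the genes described in the text are labelled. All 3 pairs lie on one side of 0 for each gene, and pair 1 is the largest of the 3 for 22 of the 43 genes that rose, among them Pgr and Slco2a1.

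Pgr, the progesterone receptor gene and the most widely used marker of estrogen action, had the largest change. Its level was 25.4, 85.3 and 104 normalized counts in vehicle replicates 1 to 3 and 145, 268 and 304 in the E2 libraries. The ranges did not overlap, and the log2 change was 1.88 (standard error 0.20, adjusted p = 0.0143). Esr1, the receptor gene itself, was at 515, 247 and 283 with vehicle and 646, 516 and 489 with E2. Each E2 library exceeded its own vehicle library, but the groups overlapped and the gene missed the threshold (log2 change 0.72, 95% interval 0.42 to 1.03, adjusted p = 0.0727).

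Classical estrogen-raised genes of breast and uterus mostly did not pass the test in these cells. Of 38 analysed, Pgr and Lrig1 rose, none fell, 27 had an estimate above 0 and the median log2 change was 0.04. Over all genes 53.7% were above 0, with a median of 0.01. Lrig1, a feedback inhibitor of receptor tyrosine kinases, was at 2675, 5034 and 5056 with vehicle and 3476, 6465 and 6006 with E2, a change of 0.33 in log2 (standard error 0.05, adjusted p = 0.0397), with overlapping groups. Under the 2 rescalings it was not called (adjusted p = 0.064 and 0.066), which left Pgr. The estimates for Igf1, Myc and Cxcl12 were 0.19, 0.25 and -0.25 with adjusted p of 0.19, 0.34 and 0.26. Bcl2, an inhibitor of apoptosis that E2 raises in breast cancer cells, had an estimate of -0.37 (adjusted p = 0.074). Among 14 receptor coregulators none was called.

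Promoters are shown for the 2 called genes that rose most, the 2 that fell most and Lrig1, because the estrogen response element and the motifs of AP-1 and Sp1 can be looked for in them. The sequences are the 250 bases before the RefSeq start on GRCm38.p6, read 5′ to 3′ on the gene's strand, with every match in capitals. The motifs searched on both strands were the palindromic estrogen response element GGTCANNNTGACC, its half-site AGGTCA, the AP-1 site TGANTCA and the GC box GGGCGG, which Sp1 binds. A response element preceded by A or followed by T also holds a half-site, and the other motifs share no match. Those of Pgr (chr9:8899583-8899832, plus strand), Slco2a1 (chr9:103008237-103008486, plus strand) and Lrig1 (chr6:94700146-94700395, minus strand) belong to genes that rose. Those of Tmem44 (chr16:30550579-30550828, minus strand) and Npnt (chr3:132950292-132950541, minus strand, the upstream of 2 starts) belong to genes that fell.
Pgr: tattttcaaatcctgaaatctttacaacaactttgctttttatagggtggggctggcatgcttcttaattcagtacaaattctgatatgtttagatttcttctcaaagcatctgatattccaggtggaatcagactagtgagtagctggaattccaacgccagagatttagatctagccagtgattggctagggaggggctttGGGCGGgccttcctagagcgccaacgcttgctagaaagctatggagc
Slco2a1: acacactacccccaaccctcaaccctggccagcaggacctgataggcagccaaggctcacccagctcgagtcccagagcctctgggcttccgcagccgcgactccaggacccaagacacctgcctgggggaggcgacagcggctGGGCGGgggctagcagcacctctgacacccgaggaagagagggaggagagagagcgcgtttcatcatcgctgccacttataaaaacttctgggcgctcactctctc
Lrig1: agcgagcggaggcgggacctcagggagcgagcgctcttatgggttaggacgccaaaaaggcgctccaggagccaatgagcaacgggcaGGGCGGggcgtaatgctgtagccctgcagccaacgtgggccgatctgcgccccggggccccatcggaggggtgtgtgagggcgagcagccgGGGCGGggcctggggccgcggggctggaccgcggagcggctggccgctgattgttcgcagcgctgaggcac
Tmem44: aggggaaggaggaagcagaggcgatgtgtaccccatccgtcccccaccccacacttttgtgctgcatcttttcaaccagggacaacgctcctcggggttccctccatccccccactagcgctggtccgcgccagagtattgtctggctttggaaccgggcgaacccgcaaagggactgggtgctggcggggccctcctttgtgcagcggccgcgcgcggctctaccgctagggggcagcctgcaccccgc
Npnt: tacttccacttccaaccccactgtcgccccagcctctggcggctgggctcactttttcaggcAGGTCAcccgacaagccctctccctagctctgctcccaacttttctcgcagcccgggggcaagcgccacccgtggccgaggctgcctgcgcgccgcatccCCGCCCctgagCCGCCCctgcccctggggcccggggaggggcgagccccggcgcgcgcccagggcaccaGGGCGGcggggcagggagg
No window of a called gene held the full estrogen response element, and none of the 12088 windows of genes tested did. In the whole RefSeq table it was in 0.0639% of 32851 windows. Pgr had a GC box whose first base lay 47 bases before the start, Slco2a1 one at 106 bases, and Lrig1 had 2, at 162 and 71 bases. Npnt held the half-site at 188 bases and 3 GC boxes, and Tmem44 held no match. Of the called genes 40 had at least 1 window in the table. A half-site was in 3 of the 38 windows of genes that rose (7.89%) and in 1 of the 12 of genes that fell (8.33%), against 10.3% of the windows of all genes tested. An AP-1 site was in 7.89% of the windows of genes that rose and in none of those of genes that fell, against 4.27%, and a GC box in 42.1% and 66.7%, against 58.9%. These windows do not cover distal sites, and a match is a description of the letters only.

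Slco2a1 and Akr1c14 were the genes called higher in the list of steroid and prostaglandin metabolism. Slco2a1, which encodes the prostaglandin transporter that clears prostaglandins from outside the cell (chromosome 9, 102988712 to 103096002), was at 59.6, 156 and 175 with vehicle and 339, 468 and 409.8 with E2. The groups did not overlap, and the log2 change was 1.76 (standard error 0.22, adjusted p = 0.023). Akr1c14, a 3-alpha-hydroxysteroid dehydrogenase, was at 197, 422 and 379 with vehicle and 608, 757 and 722 with E2. It rose by 1.13 on the log2 scale (standard error 0.14, adjusted p = 0.0238), also without overlap. Of its exon sequence 7.2% is shared with an overlapping gene model, and it has close paralogs, so its level is uncertain.

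Adh1, an alcohol dehydrogenase that oxidizes retinol, gave the lowest adjusted p of all genes. Its normalized counts were 789.6, 1414 and 1304 with vehicle and 1641, 3025 and 2832 with E2, and the 3 pairs differed by 1.05, 1.10 and 1.12, a log2 change of 1.09 (standard error 0.05, adjusted p = 0.000236). Dhrs9, another retinol and steroid dehydrogenase, chosen for mention after its values were seen, rose by 0.74 (adjusted p = 0.0387). In the opposite direction, Cyp1b1, which hydroxylates E2 to catechol estrogens, was at 7428, 7496 and 7611 with vehicle and 5671, 5532 and 5098 with E2. The vehicle libraries were nearly level with each other and all above the E2 libraries, and the log2 change was -0.47 (standard error 0.05, adjusted p = 0.0191). Ahr, the aryl hydrocarbon receptor whose best known targets include Cyp1b1, went from 1986, 766 and 773 to 1335, 516 and 550.0. It fell in each pair, by 0.54 on the log2 scale (standard error 0.06, adjusted p = 0.0156), while replicate 1 lay above the others in both groups. Of the 21 steroid and prostaglandin genes analysed, 2 rose and 1 fell, 16 had an estimate above 0 and the median was 0.08. Of the list's uncalled genes, Ptgs1, a cyclooxygenase gene, and Hsd17b4 had estimates of 0.18 and 0.16 (adjusted p = 0.29 and 0.23).

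Qpct, Phex, Agtr2, Mrgprf and Npr3, which are in none of the fixed lists, rose. Qpct encodes glutaminyl cyclase, which forms the N-terminal pyroglutamate of peptide hormones and of chemokines such as Ccl2 (chromosome 17, 79051906 to 79090378). It had 363, 507 and 467 normalized counts with vehicle and 1041, 1162 and 1283 with E2, with every E2 library above every vehicle library, and the log2 change was 1.39 (standard error 0.08, adjusted p = 0.000778). Phex, an endopeptidase best known from phosphate balance and mineralization, was at 19.9, 151 and 151 with vehicle and 79.9, 334 and 299 with E2. Its low replicate 1 made the groups overlap, and the change was 1.36 (standard error 0.20, adjusted p = 0.0395). Agtr2, the angiotensin II type 2 receptor gene, was at 1243, 1042 and 965 with vehicle and 2096, 2035 and 2049 with E2, with the E2 libraries closer to each other than the vehicle libraries and no overlap. It rose by 0.93 (standard error 0.07, adjusted p = 0.00281). Mrgprf, an orphan G protein-coupled receptor gene, was at 115, 357 and 329 with vehicle and 293, 606 and 597 with E2 and rose by 0.99 (adjusted p = 0.0236), with replicate 1 low in both groups and the groups overlapping. Npr3, the natriuretic peptide clearance receptor gene, chosen after its values were seen, rose by 0.49 (adjusted p = 0.0397).

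Matrix genes moved in both directions and the fibrillar collagen genes themselves were mostly not called. Aspn, the small leucine-rich proteoglycan asporin, was at 15678, 1801 and 1783 with vehicle and 27948, 4026 and 3968 with E2. Replicate 1 was far above the others in both groups, so the groups overlapped, and the paired log2 change was 1.05 (standard error 0.07, adjusted p = 0.0017). Plod2, the lysyl hydroxylase that prepares collagen telopeptides for stable crosslinks, was at 8436, 5145 and 5264 with vehicle and 18492, 8283 and 8515 with E2, a change of 0.84 (standard error 0.09, adjusted p = 0.0143). Col5a3, a chain of type V collagen, had 1156, 660.3 and 682 with vehicle and 2300.2, 968 and 1257 with E2 and rose by 0.81 (standard error 0.09, adjusted p = 0.0143). Without replicate 1 it changed by 0.72 with an adjusted p of 0.067. Adamts2, which removes the N-terminal propeptide of procollagens, was at 3500.4, 5417 and 5382 with vehicle and 6418, 7591 and 7039 with E2, without overlap, and rose by 0.58 (adjusted p = 0.0397).

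The matrix genes that fell had high levels in replicate 1. Npnt, the integrin ligand nephronectin, was at 4704, 686 and 688 with vehicle and 2548, 519 and 446 with E2, a log2 change of -0.64 (standard error 0.09, adjusted p = 0.0338). Col8a2, a chain of the short-chain type VIII collagen, was at 12254, 834 and 764 with vehicle and 9684, 559 and 528 with E2 and changed by -0.48 (adjusted p = 0.0236). Matn4, a matrilin that links matrix filaments, was at 3273, 357 and 331 with vehicle and 2318, 239 and 260.3 with E2 and changed by -0.47, just past the threshold (adjusted p = 0.0497). Ccn2, the connective tissue growth factor gene and a common readout of TGF-beta and Yap activity, was at 4513, 1230.1 and 1213 with vehicle and 3333, 926 and 998 with E2. It fell by 0.38 (standard error 0.05, adjusted p = 0.0383). The groups overlapped for each of these 4 genes, because the 2 libraries of replicate 1 lay above the others. Matn2, another matrilin gene, and Omd, which encodes the proteoglycan osteomodulin, both chosen after their values were seen, rose by 0.56 and 0.64 (adjusted p = 0.0481 and 0.0387).

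By list, 1 of 23 collagen chains rose and 1 fell, with 15 estimates above 0 and a median of 0.09. By limma 6 of the 23 chains were higher and 5 lower at an unadjusted p under 0.05, against 7.79% and 6.7% of all genes. Uncalled chains with estimates above 0 included Col1a1 (0.26), Col6a1 (0.28), Col6a2 (0.36), Col6a3 (0.31) and Col5a1 (0.40), with adjusted p of 0.068 to 0.34. The lowest estimate was that of Col14a1 at -0.52 (adjusted p = 0.40). Of 21 collagen processing genes 2 rose and none fell, 16 were above 0 and the median was 0.13. The next largest estimates there were those of the crosslinking enzymes Loxl2 and Loxl4, both 0.39 (adjusted p = 0.077 and 0.17). Of 34 matrix glycoproteins only Ccn2 was called, and the list was split, with 18 above 0 and a median of 0.02. Its elastic fiber genes had estimates on both sides of 0, with 0.61 for Fbn1, 0.41 for Efemp1, which encodes fibulin-3, and -0.38 for Fbn2 (adjusted p = 0.055, 0.0505 and 0.34). Tnc, the tenascin-C gene, was at -0.36 (adjusted p = 0.18). Of 19 proteoglycan genes Aspn was the one called, with 12 above 0 and a median of 0.08, and of 27 matrix proteases and inhibitors none was called. The medians of the collagen chain and collagen processing lists were 0.03 and 0.05 after quantile normalization.

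None of the 24 TGF-beta ligands, receptors and response genes was called, 13 were above 0 and the median was 0.02, which became -0.01 and -0.03 when the values were rescaled to a common total or quantile normalized. Of the 21 BMP ligands, receptors and Id genes 2 fell and none rose, and 7 were above 0, with a median of -0.10. The median was -0.044 without replicate 1, -0.047 after quantile normalization and -0.066 without replicate 3, then with 10 above 0. Both that fell are Id genes, which encode inhibitors of basic helix-loop-helix factors and are direct BMP targets. Id2 was at 1967, 700.3 and 674 with vehicle and 1316, 489 and 514 with E2, a log2 change of -0.50 (standard error 0.07, adjusted p = 0.0285). Id3 was at 3055, 2584 and 2172 with vehicle and 2239, 1799.9 and 1766 with E2 and changed by -0.42 (adjusted p = 0.0287). For Id1 and for the ligand gene Bmp4 the estimates were -0.33 and -0.28 (adjusted p = 0.12 and 0.17).

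Among 26 Wnt pathway genes, 2 fell and 1 rose, with 10 above 0 and a median of -0.04. Rspo3 and Rspo2, secreted R-spondins that strengthen Wnt signals at the receptor, both fell. Rspo3 was at 7080.2, 2023 and 1979 with vehicle and 5675, 1507 and 1515 with E2, a change of -0.38 (standard error 0.05, adjusted p = 0.0238). Rspo2 was at 6625, 2277 and 2174 with vehicle and 5121, 1834 and 1814 with E2, a change of -0.31 (adjusted p = 0.0413). Apcdd1, a membrane inhibitor of Wnt signaling, went the other way, from 203, 217 and 239.7 to 343, 366 and 369, without overlap (log2 change 0.71, adjusted p = 0.0287). Jag1, a Notch ligand, was at 7238, 1127 and 1121 with vehicle and 5392, 936 and 867 with E2, and fell by 0.35 (adjusted p = 0.0397).

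Of the 18 contractile genes of myofibroblasts, Csrp2, a LIM-domain protein of smooth muscle and activated stromal cells, was the one called. Its level of 257, 222 and 224 with vehicle was nearly the same in the 3 libraries and it was 471, 439.9 and 428 with E2, so that the groups lay well apart and the change was 0.93 (standard error 0.09, adjusted p = 0.0108). For the list 14 estimates were above 0 and the median was 0.13, and without replicate 2 these were 11 and 0.047. The list's medians in pairs 1, 2 and 3 were -0.077, 0.18 and 0.12. Nedd9, a scaffold protein of focal adhesions, was at 8226, 1882 and 1765 with vehicle and 6152, 1429.8 and 1369 with E2 and fell by 0.39 (adjusted p = 0.0191). Tmem44, a transmembrane protein gene, had the largest decrease among the called genes, from 489.7, 632 and 652 with vehicle to 302, 339 and 443 with E2, with no overlap (log2 change -0.72 (standard error 0.09, adjusted p = 0.0236)).

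In the list of 26 NRF2 targets and antioxidant genes, Gpx3, the secreted glutathione peroxidase, was the one called, while 25 estimates were above 0 and the median was 0.13. Gpx3 was at 227, 239 and 231 with vehicle and 599.7, 465 and 444 with E2, a log2 change of 1.10 (standard error 0.11, adjusted p = 0.0143), with tightly grouped vehicle libraries and no overlap. Superoxide dismutase and glutathione peroxidase genes had smaller estimates, 0.29 for Sod3, 0.27 for Gpx4 and 0.18 for Sod1 (adjusted p = 0.051, 0.15 and 0.23). Mt2, a metallothionein gene that metals and glucocorticoids induce, was at 1168, 4435 and 3877 with vehicle and 1436, 5427 and 5103 with E2 and rose by 0.33 (adjusted p = 0.0392). It was the one called of 20 glucocorticoid-responsive genes, and under the 2 rescalings it was not called (adjusted p = 0.064 and 0.071).

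Single members of other lists also rose. Igfbp6, which binds IGF-II, was at 22771, 21066 and 18709 with vehicle and 38367, 28689 and 28053 with E2, a change of 0.59 (adjusted p = 0.0285), without overlap and as the one called of 18 IGF genes. Masp1, a protease of the lectin complement pathway, was at 204, 513 and 573 with vehicle and 361, 774 and 776 with E2 and rose by 0.62 (adjusted p = 0.0397). Of the 11 genes analysed from a list that marks fibroblast progenitors, Cd34 and Cd248 rose, none fell, 9 were above 0 and the median was 0.39, which was 0.25 without replicate 1. Neither gene was called under the 2 rescalings or without replicate 1 (adjusted p from 0.052 to 0.12). Cd34, a sialomucin of progenitor and adventitial fibroblasts, was at 6339, 9330.3 and 9108 with vehicle and 12090.0, 13326 and 12578 with E2, a change of 0.64 (adjusted p = 0.0338). Cd55, Pi16 and Ly6a from this list had estimates of 0.60, 0.41 and 0.56 with adjusted p of 0.075, 0.31 and 0.23, and the lowest was Penk at -0.45 (adjusted p = 0.22). In bulk samples like these, a different share of such cells and a different amount of RNA per cell cannot be told apart.

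Among the called genes left, chosen for mention after their values were seen, were Stard10, a lipid transfer protein gene (0.77, adjusted p = 0.00657), Peg10, an imprinted retrotransposon-derived gene (0.66, adjusted p = 0.0191), and Gpam, which starts triglyceride synthesis (0.47, adjusted p = 0.0285). Palld, an actin-bundling protein gene, rose by 0.43 (adjusted p = 0.036) and Il4ra, the IL-4 receptor chain gene, by 0.36 (adjusted p = 0.0334). The small nucleolar RNA genes Snord17 and Snora73b rose by 0.88 and 0.54, whereas the 58 small nucleolar and small Cajal body RNA genes had a median of -0.02, with medians of 0.22, -0.26 and 0.04 in pairs 1, 2 and 3.

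**Figure D2:**
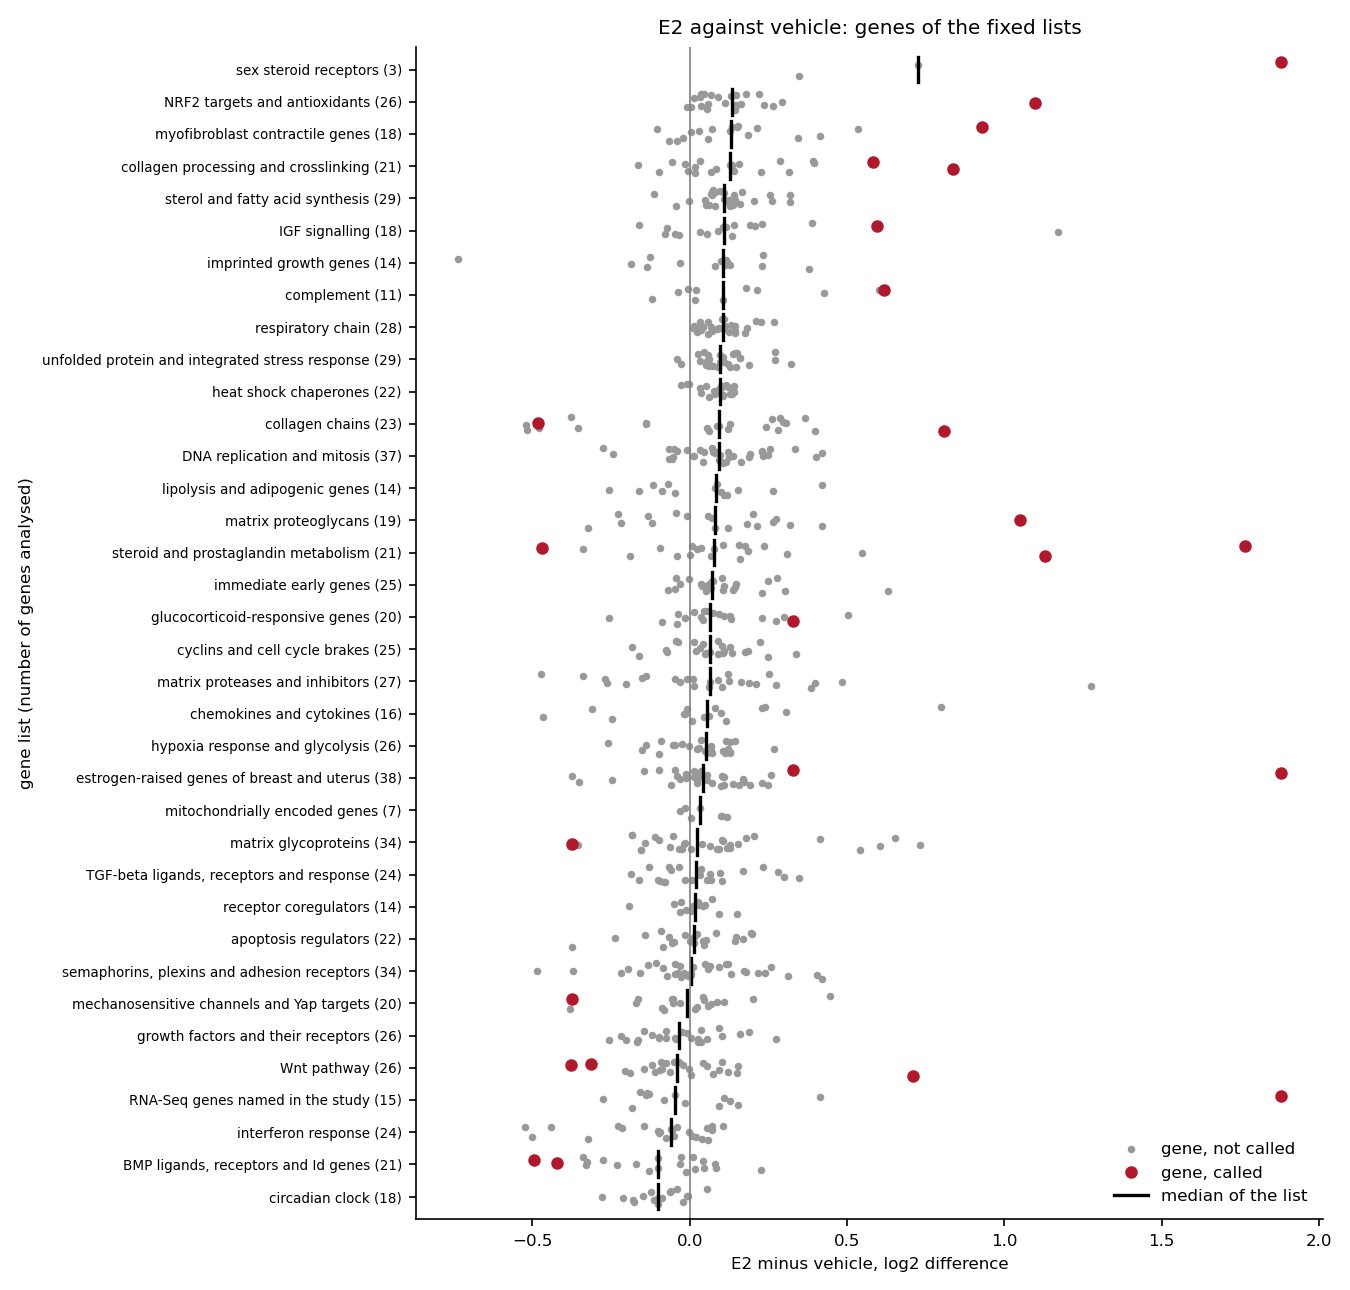
Log2 change with E2 against vehicle (x axis) of each analysed gene of the 36 fixed lists (y axis, with the number of genes analysed). Grey points are genes that were not called, larger red points are called genes and black bars are list medians. Most medians lie within 0.15 of 0, and in several lists uncalled genes lie as far from 0 as the called ones.

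No gene was called among 37 genes of DNA replication and mitosis or among 25 cyclins and cell cycle brakes. For the first list 28 estimates were above 0, the median was 0.09, and the estimates ran from Cdc7 at -0.28 to Bub1 at 0.42. In it 3 of 37 genes were higher at an unadjusted p under 0.05 by limma, which is near the share over all genes (7.79%). Without replicate 2 the median was 0.024, with 19 of 37 above 0. Apoptosis regulators had a median of 0.01 over 22 genes. Interferon response genes were at -0.06 over 24, with 8 above 0, and 16 chemokines and cytokines at 0.05, with none called in either list. In several lists without a call most estimates lay on one side of 0. Of the respiratory chain genes 28 of 28 estimates were above 0, with a median of 0.11 (0.07 after rescaling to a common total, with 25 above 0). The medians were not even across pairs, at 0.027, 0.12 and 0.15 in pairs 1, 2 and 3. For sterol and fatty acid synthesis it was 26 of 29 with a median of 0.11 (0.0084, 0.21 and 0.13 by pair), for the unfolded protein response 27 of 29 with 0.10, and for heat shock chaperones 19 of 22 with 0.10 (16 of 22 after quantile normalization). Of 18 circadian clock genes 1 was above 0 (5 without replicate 1) and the median was -0.10. By limma 3 of the 18 were lower at an unadjusted p under 0.05, against 6.7% of all genes. Among these 3 were Bhlhe41 at -0.28 and Per3 at -0.21 (adjusted p = 0.15 and 0.27). Genes of one list are measured in the same libraries and do not vary independently, so these counts are a description.

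The study's text names 15 RNA-Seq genes that could be analysed here, and Pgr was the one called. The study's RNA-Seq comparison was of E2 with E2 plus fulvestrant, which is not the comparison with vehicle given here. Ltbp1, the latent TGF-beta binding protein gene, was at 10149, 5676 and 5754 with vehicle and 10586, 7105 and 6059.9 with E2, a change of 0.15 (95% interval 0.01 to 0.30, adjusted p = 0.33). For Adamts6, a metalloproteinase gene, the log2 change was -0.14 (95% interval -0.26 to -0.02), and for Fbln7, the fibulin-7 gene, -0.01 (95% interval -0.18 to 0.15). The mechanically gated channel gene Piezo2 was at 0.11 (95% interval -0.07 to 0.28), the adhesion molecule gene Ncam1 at -0.05 (-0.34 to 0.25) and the semaphorin receptor gene Nrp2 at -0.16 (-0.38 to 0.07). For the matricellular protein gene Ccn3 the change was 0.09 (-0.15 to 0.33). Its vehicle level was 25809.5, 4883 and 4654 and its E2 level 21381, 5762 and 5787, lower with E2 in replicate 1 and higher in the other pairs. The signaling genes Smad3 and Tgfb2 were at -0.08 (-0.20 to 0.03) and -0.13 (-0.33 to 0.07). The cell cycle genes Cdkn1c, Cdc7 and Wee1 were at 0.13, -0.28 and -0.18, and the transcription factor gene Plagl1 at -0.13. Efemp1 came closest to a call, at 968, 1589 and 1598 with vehicle and 1455, 1984 and 2016 with E2 (log2 change 0.41, 95% interval 0.26 to 0.56, adjusted p = 0.0505).

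The same E2 dose was also given after fulvestrant, and the degree of receptor block was not measured in these libraries. This comparison, of E2 plus fulvestrant against fulvestrant alone, shares no library with E2 against vehicle. By limma 0 of 13233 genes were called (lowest adjusted p = 0.427), with 516 at an unadjusted p under 0.05. Of the 43 genes that E2 alone raised, 39 had an estimate above 0, with a median log2 change of 0.11 and a range from -0.19 to 0.42, against a median of 0.00 over all genes. Of the 14 that E2 alone lowered, 11 were below 0, with a median of -0.04, and the medians in pairs 1, 2 and 3 were 0.16, -0.21 and -0.19. Over all 13233 genes, 6975 estimates were above 0 and 6258 below. A difference in the same direction in all 3 pairs was seen for 13 of the 43 and 1 of the 14, and was not counted over all genes.

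**Figure D3:**
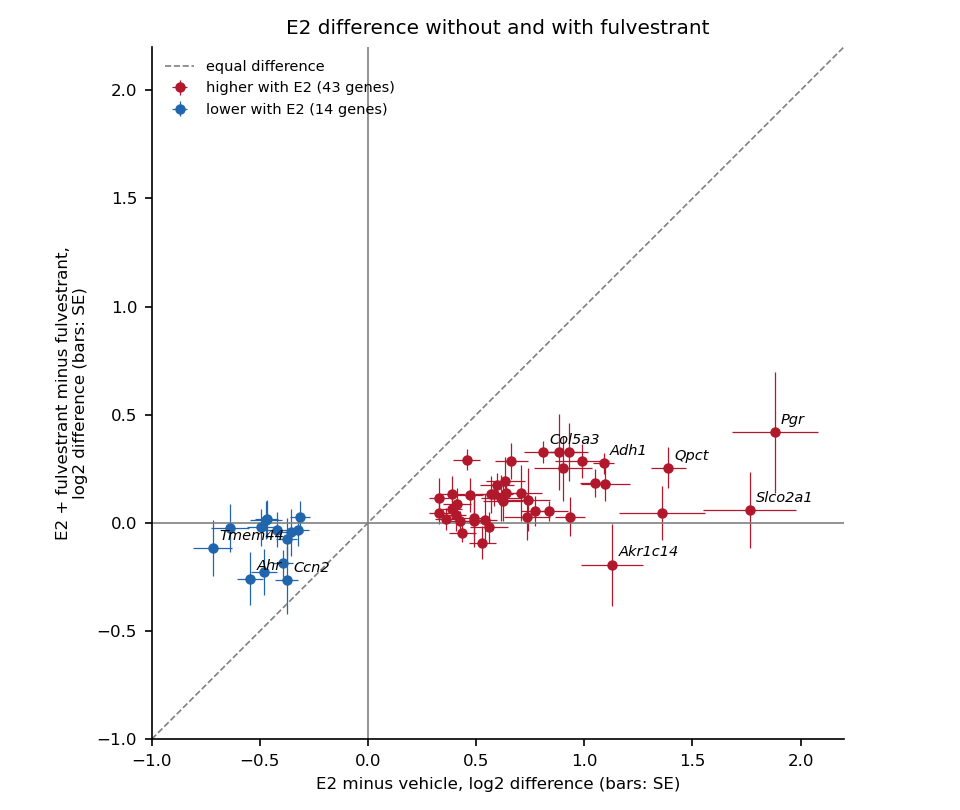
Log2 difference made by E2 without fulvestrant (x axis) and after fulvestrant (y axis) for the 43 called genes that rose (red) and the 14 that fell (blue), with standard errors as bars. The points lie between -0.26 and 0.42 on the y axis, and all those that rose lie below the line of equal difference. The genes were chosen on the x axis values.

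The test of the difference between the 2 conditions, the interaction of E2 and fulvestrant over all 12 libraries, called 0 genes by limma, with 501 at an unadjusted p under 0.05 and a lowest adjusted p of 0.237. Because the 57 genes were chosen for their change with E2 alone, their interaction estimates are larger than an unselected set would give. As a description, the median interaction was 0.52 for the 43 and -0.33 for the 14 on the log2 scale. The largest values were 1.71 for Slco2a1, 1.46 for Pgr, 1.32 for Akr1c14 and for Phex 1.31. Replicate 1 decides the count of calls: without it the interaction was called for 11 genes, all with a positive value. Such a value can come from a rise with E2 alone, a fall with E2 after fulvestrant, or both. Among the 57 were 7 of the 11 (Adh1, Agtr2, Aspn, Dhrs9, Emb, Plod2 and Qpct). The other 4 were Acta2 and Tagln, smooth muscle actin and transgelin of contractile fibroblasts, at 1.07 (adjusted p = 0.0014) and 0.87 (adjusted p = 0.044), and S100a4 and Cav1, at 0.83 and 0.64. In the contractile list, which holds Acta2 and Tagln, E2 after fulvestrant had 16 of 18 estimates below 0 and 2 above, with all replicates (median -0.07). With E2 alone 14 were above 0. E2 after fulvestrant was then called for 42 genes higher and 105 lower, of which 8 were among the 57 (Ahr, Aspn, Ccn2, Col5a3, Col8a2, Mrgprf, Nedd9 and Snord17).

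The levels in the fulvestrant libraries differed from gene to gene, and are given for some of the genes beside the vehicle values above. The genes were chosen against the same vehicle libraries, so where fulvestrant lies relative to vehicle is a description. Pgr was at 13.03, 21.5 and 16.2 with fulvestrant alone and 14.8, 28.4 and 27.0 with E2 after fulvestrant. Qpct was at 358, 298 and 303 with fulvestrant alone and 385, 365 and 391 with both, and Agtr2 at 757, 649.7 and 728 with fulvestrant alone and 923, 634 and 650.2 with both. These 3 genes were below vehicle in every library that had fulvestrant alone. Adh1, Gpx3 and Aspn were above vehicle in each of them instead. Adh1 was at 1754, 2079.8 and 2306 with fulvestrant alone and 2219.8, 2548 and 2632 with both. Gpx3 was at 853, 479 and 532 with fulvestrant alone and 1099, 522 and 553 with both, and Aspn at 41283, 4036 and 4142 with fulvestrant alone and 40230.3, 4914 and 5124 with both. For Aspn and Gpx3 each library with fulvestrant alone also lay above the E2 library of the same number. Slco2a1, at 111, 79.4 and 63.2 with fulvestrant alone and 89.6, 89.8 and 78.2 with both, was above vehicle in replicate 1 and below it in the others. Of the genes that fell, Ahr, Rspo3 and Id2 were among the 11 below vehicle in each library with fulvestrant alone. Ahr was at 315, 441 and 461 with fulvestrant alone and 341, 351 and 313 with both, Rspo3 at 1091, 864 and 728 with fulvestrant alone and 1303, 704 and 641 with both, and Id2 at 747, 397 and 462 with fulvestrant alone and 839, 378 and 414 with both. Cyp1b1 was at 4483, 8548 and 8336 with fulvestrant alone and 5763, 7601 and 7575 with both, above vehicle with fulvestrant alone in replicates 2 and 3 and below it in replicate 1.

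**Figure D4:**
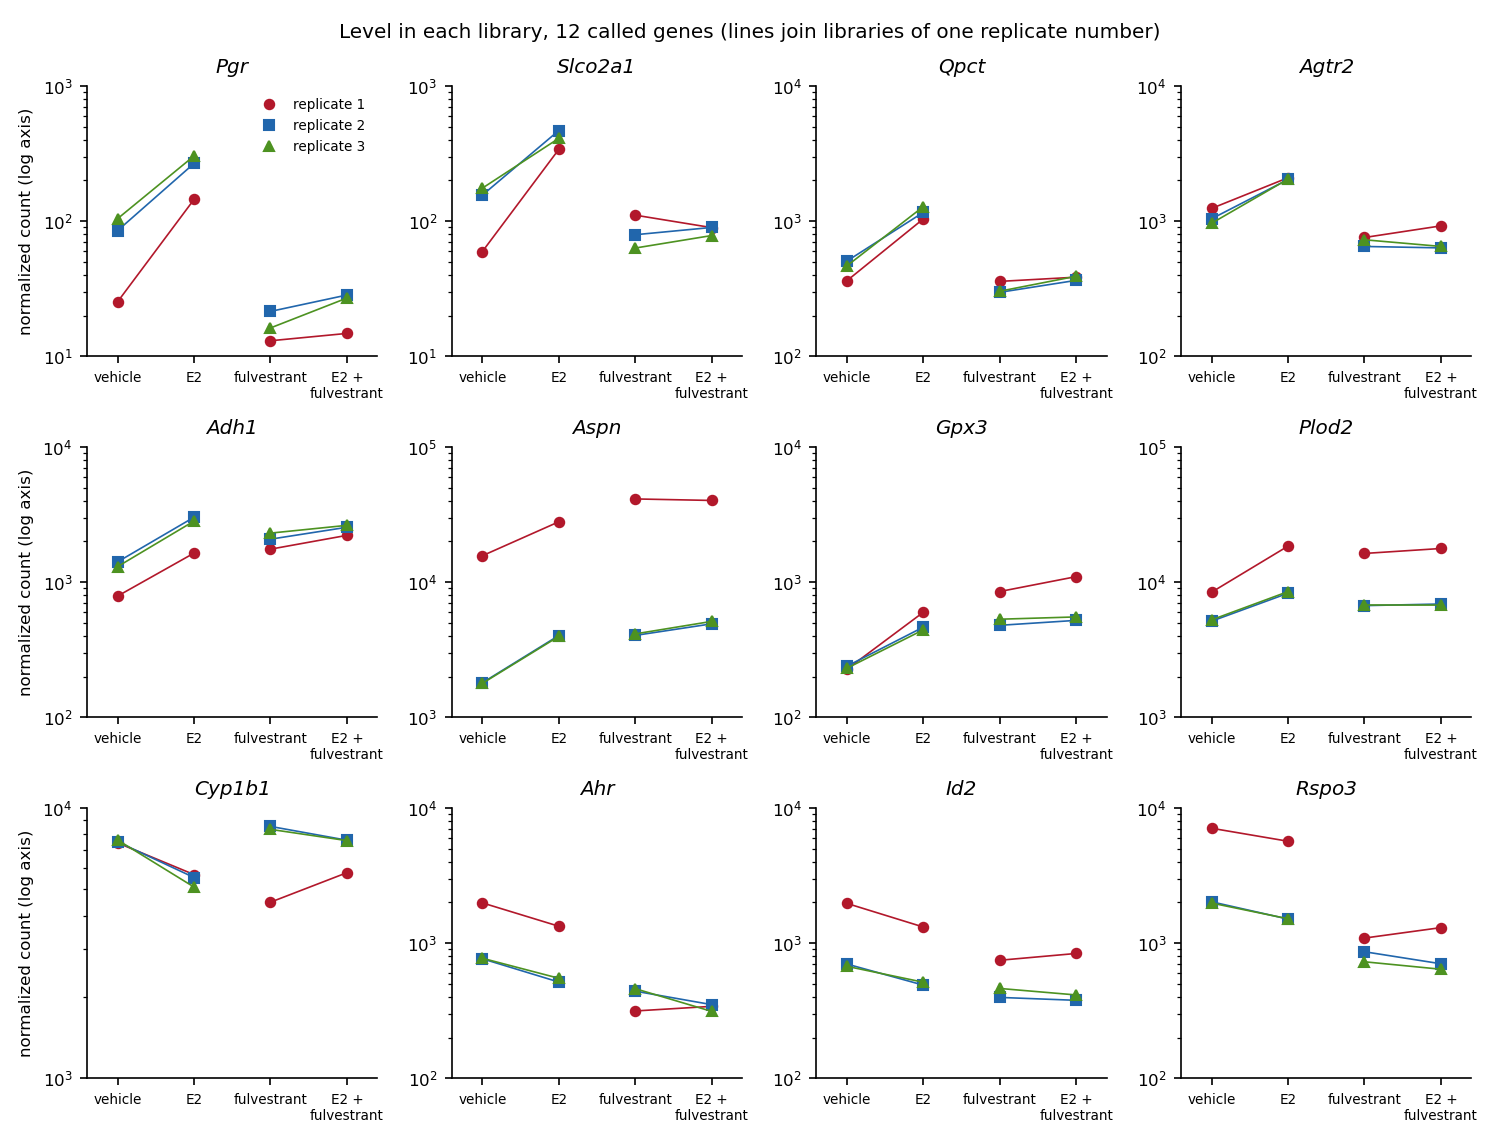
Normalized count on a log axis (y) in each of the 12 libraries, by treatment (x), for 12 of the called genes. Markers are replicates 1, 2 and 3, and lines join the libraries of one number without and with E2. The step from vehicle to E2 is seen in each replicate, whereas the libraries with fulvestrant alone lie below the vehicle library of the same number for Pgr, Qpct, Ahr, Id2 and Rspo3 and above it for Adh1 and Gpx3.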

How the data were processed

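RNA-Seq of 12 samples was used, 3 per treatment, grouped by the submitters' labels. The deposited table gives a signal for each gene in each sample, which is a normalized count. The authors trimmed the reads with Trimmomatic 0.39, aligned them to mm10 with STAR 2.5.2, counted by gene with HTSeq 0.13.5 (versions from the submitters' processing notes), removed counts under 10 and scaled the libraries with DESeq2 1.37 (median of ratios). They also describe a batch adjustment, but the deposited values still separate by replicate number.

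Each gene's log2(value + 1) was modelled in limma 3.58.1 (R 4.3.3, eBayes with a variance trend) over the 2 groups compared, with the replicate number as a block, on all 13233 genes with Benjamini-Hochberg adjustment. This scale understates changes at low counts. The interaction was fitted on all 12 samples. Same-numbered E2 and vehicle samples deviated together from their group means (r of 0.91, 0.72 and 0.77 across genes for numbers 1, 2 and 3), but the unlike-numbered samples of replicates 2 and 3 had an r of 0.71 and 0.63. The correlations thus set replicate 1 apart, and the pairing of 2 with 2 and 3 with 3 rests mainly on the numbers in the labels. Symbols and positions came from GENCODE M21 (GRCm38, the same build as mm10), with 13149 genes having a symbol, and promoters from RefSeq (GRCm38.p6). Alternatives were the pseudocount, low-value filter, block, samples fitted, variance trend, scaling, call rule and leaving out each replicate number.

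The members and gene lists were chosen with earlier results of these data known. Named genes were among called genes with one sign in all pairs the 12 with the largest rise and the 12 with the largest fall, every called member of a list, the sex steroid receptors and the RNA-Seq genes that the study names. Genes said to be chosen after their values were seen fall outside this rule, as do Cd34 and Cd248 and the uncalled genes named from a list for the size of their estimate. Some genes that the rule covers are not reported here. The fit was tested on simulated counts with a small fixed spread and the same effect of E2 in every pair. That test cannot show how many of the calls above are right, because real pairs may differ in their response. Python 3.11.15, pandas 2.3.3 and matplotlib 3.10.9 were used for tables and plots.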

Additional observations from a re-analysis of the deposited data

How the results depend on the processing

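The counts of called genes depended on the block, the variance model and single replicates. With the replicate block, 43 genes were higher and 14 lower with E2, and with no replicate block both counts were 0, with a lowest adjusted p of 0.836. No variance trend also gave 0 and 0. One fit of all 12 samples with the block gave 10 higher and 0 lower. Rescaling to a common total (CPM) gave 27 higher and 14 lower, so that 65.9% of the calls were higher in place of 75.4%, and a fold change over 1.5 left 25 and 2. Leaving out 1 replicate number gave 6 to 165 genes higher and 0 to 114 lower, with replicate 3 and replicate 2 left out as the extremes. For E2 after fulvestrant this gave 0 to 147 calls, and for the interaction 0 to 11, with the highest counts without replicate 1. These fits have few residual degrees of freedom. Among the named genes, log2 changes that turned direction when 1 replicate was left out belonged to uncalled ones: Fbln7 (-0.12 to 0.057), Ncam1 (-0.21 to 0.17) and Ccn3 (-0.016 to 0.28). Pseudocounts of 0.5 and 10, a mean of at least 100, quantile normalization and adjusted p alone kept the counts within 1.5 times, with 57, 64, 52, 43 and 57 calls. All 33 called genes among the named ones kept their direction under every alternative run. Medians of gene lists are mostly near 0, and many moved by over 1.5 times when a replicate was left out or the values were rescaled. That of the 34 matrix glycoproteins was -0.01 and -0.04 under the 2 rescalings. Tests on read counts were planned but were not run on these normalized values. Genes under 10 reads are not analysed here, and for genes with few reads, such as Pgr and Phex in replicate 1, counting error limits the size of a fold change.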

Other observations

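Some of the larger estimates that did not pass the test, chosen here after their values were seen, belonged to genes not named above. Adamts15, a versican-cleaving protease gene, was at 30.9, 272 and 273 normalized counts in vehicle replicates 1 to 3 and 165, 501 and 405 with E2 (log2 change 1.27, standard error 0.30, limma adjusted p = 0.167). Stc1, which encodes stanniocalcin-1, was at 22.1, 54.8 and 37.5 with vehicle and 69.0, 99.6 and 78.9 with E2 (1.17, standard error 0.21, limma adjusted p = 0.0732), with no overlap between the groups. Ccl11, the eotaxin gene, was at 25.4, 45.2 and 38.8 with vehicle and 76.9, 58.0 and 54.6 with E2 (limma adjusted p = 0.267), also without overlap. Fosl2, an AP-1 subunit gene, was at 2775, 8565 and 8662 with vehicle and 5697, 12017 and 11135 with E2 (0.63, limma adjusted p = 0.0718), and was the highest of 25 immediate early genes, of which 20 had an estimate above 0 (13 without replicate 1) and none was called. Meg3, an imprinted long noncoding RNA gene, was at 95195, 48935 and 54357 with vehicle and 86851, 14752 and 42638 with E2 (-0.74, limma adjusted p = 0.284), where replicate 2 alone carried most of the difference.

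Growth factors and their receptors (26 genes, median log2 change -0.03), semaphorins, plexins and adhesion receptors (34 genes, 0.00), hypoxia response and glycolysis (26 genes, 0.05) and lipolysis and adipogenic genes (14 genes, 0.08) had no called gene. Of 20 genes of mechanosensitive channels and Yap targets Ccn2 was the one called, with a median of -0.01, and 14 imprinted growth genes and 7 mitochondrially encoded genes had none, with medians of 0.11 and 0.03. Of the marker lists of other cells, 4 of 8 pericyte and smooth muscle genes, 3 of 5 Schwann cell genes and 1 of 7 epithelial and mesothelial genes were analysed and none was called. The last of these, Wt1, was at 61.8, 70.5 and 67.6 with vehicle and 59.2, 28.2 and 43.7 with E2 (-0.66, limma adjusted p = 0.308).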
